A study of Mus musculus with 2 samples.

Results

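The genes described here act on the uptake, activation and storage of fatty acids, and they were followed through leukocytes of the mouse liver after fibrosis. They are Cd36, Fabp4, Fabp5, Lpl, Acsl1, Dgat1, Dgat2, Plin2, Hilpda and Pnpla2, chosen by gene symbol, and all 10 were found among the 31053 genes of the deposited matrices. Single cells were profiled with 10x droplets, which count 3′ ends of transcripts as unique molecular identifiers (UMIs), each standing for 1 captured transcript. The RES library came from C57BL/6 mice after their liver fibrosis had resolved and the Ctrl library from uninjured C57BL/6 mice; the injury, its duration, and the age and sex of the mice are not given in the sources used here. Each library pooled 5 mice, and both were sorted for CD45 and for the integrin CD11b from a density gradient of liver mononuclear cells, a route meant to discard hepatocytes and to keep cells that carry CD11b. Each group was thus 1 library, no difference has a replicate check, no test was possible, and the 95% intervals below reflect the counting of UMIs alone, not mice or preparations.

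Triglyceride-rich particles are hydrolysed outside the cell by lipoprotein lipase, and the fatty acids that are released enter through carriers such as CD36 and are bound by fatty acid binding proteins in the cytosol. Acyl-CoA synthetases activate them, diacylglycerol acyltransferases join them into triglyceride, and the triglyceride is stored in droplets coated by perilipins. Adipose triglyceride lipase, the product of Pnpla2, opens the stored triglyceride again, and HILPDA binds and inhibits it. In liver and in fat, macrophages that hold lipid droplets commonly carry Cd36, Lpl, Fabp4, Fabp5 and Plin2, so these genes are used as marks of lipid-handling macrophages.

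On GRCm38 with the GENCODE M21 annotation, Fabp5 lies at chr3:10012548-10016607 and Fabp4 at chr3:10204088-10208576, on opposite strands of the same region. Cd36 lies at chr5:17781690-17888801, Lpl at chr8:68880491-68907448 and Acsl1 at chr8:46471037-46536051. Dgat1 lies at chr15:76502015-76511953, Dgat2 at chr7:99153658-99182719, Pnpla2 at chr7:141455198-141460743, Plin2 at chr4:86648386-86670060 and Hilpda at chr6:29272488-29275446. The start regions of Plin2 and Hilpda are printed because these genes had the largest RES over Ctrl ratios of the 10 in monocytes and macrophages. Each run reads 5′ to 3′ on the gene's strand and covers 250 bases before to 50 after a transcript start in RefSeq's table on GRCm38.p6, at chr4:86670010-86670309 (minus strand) and chr6:29272376-29272675 (plus strand, the second of the 2 Hilpda starts listed). Capitals mark ACGTG, the core letters of the hypoxia response element, searched on both strands; in Plin2 the match is the palindrome CACGTG, which reads on either strand and includes the E-box letters.
Plin2: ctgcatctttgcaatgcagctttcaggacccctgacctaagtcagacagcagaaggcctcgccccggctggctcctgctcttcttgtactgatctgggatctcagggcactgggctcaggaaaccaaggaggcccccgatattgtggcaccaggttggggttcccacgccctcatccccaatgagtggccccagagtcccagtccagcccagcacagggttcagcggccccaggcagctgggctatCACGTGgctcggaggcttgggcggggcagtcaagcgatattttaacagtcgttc
Hilpda: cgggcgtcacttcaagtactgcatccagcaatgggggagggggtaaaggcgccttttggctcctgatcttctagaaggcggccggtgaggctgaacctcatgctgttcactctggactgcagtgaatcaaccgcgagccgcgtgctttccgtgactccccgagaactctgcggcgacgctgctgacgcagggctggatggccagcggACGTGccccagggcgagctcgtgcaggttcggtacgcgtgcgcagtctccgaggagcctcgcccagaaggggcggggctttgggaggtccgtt
The Plin2 match began at position -4 and the Hilpda match at position -43 relative to the transcript start. The first Hilpda start region, at chr6:29272238-29272537, held no match and is not printed, although its start is the gene start given above. ACGTG was found in 2 of the 7 start regions matched for 5 of the genes (Acsl1, Cd36, Hilpda, Plin2 and Pnpla2), and in 6447 of all 32851 start regions of the table (19.6%), so its presence is common. A match describes letters and not a bound site.

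The RES library held 34119806 UMIs in 4278 barcodes and the Ctrl library 20379164 UMIs in 3691 barcodes; filters retained 4011 RES and 3337 Ctrl cells, the median cell had 6360 UMIs in RES and 4507 in Ctrl, and 49 barcode sequences occurred among the retained cells of both. Cells were assigned by gates on marker UMIs per 10000 UMIs of the cell: 2005 RES and 1225 Ctrl monocytes and macrophages, 121 and 189 conventional dendritic cells (cDC), 1305 and 1303 NK cells, 59 and 59 B cells, and 521 and 561 cells outside every gate. Monocytes and macrophages with Arg1 and Spp1 together at 10 or more per 10000 are called Arg1 macrophages; they made up 14.3% of RES cells (575) and 0.929% of Ctrl cells (31). The 31 Ctrl cells had a median of 721 UMIs, against 12178 in the 575 RES cells. Of the 31, 22 had fewer than 2000 UMIs, so that a few UMIs passed the gate. Leaving out barcodes found in both libraries took Ctrl monocytes and macrophages from 1225 to 1196 cells. Those outside the Arg1 gate went only from 1194 to 1187. Most of the 31 thus carried a barcode also found in RES, and whether they came over from the RES library was not tested. Values of the 31 cells are given without a fold. Of the sort markers' genes, Ptprc (CD45) had a UMI in 98.0% of RES and 98.1% of Ctrl cells, and Itgam (CD11b) in 74.5% and 55.0%; cDC and B cells were low in Itgam, at 42.1% and 20.3% in RES and 34.4% and 8.47% in Ctrl. The macrophage gene Trem2 stood at 236 CPM (UMIs per 1000000 UMIs of the class) in RES Arg1 macrophages. The Kupffer cell markers Clec4f, Timd4, Vsig4, Cd5l and Marco summed to 15.5 CPM there, and in all monocytes and macrophages to 7.34 CPM in RES and 8.08 CPM in Ctrl (Marco at 0 in Ctrl). These markers of resident liver macrophages were thus low in the pooled class, and they were highest in C1q macrophages, at 41.6 CPM in RES and 81.2 CPM in Ctrl.

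Most transcripts of Plin2, Hilpda, Cd36 and Lpl in the RES library came from the Arg1 macrophages. These cells held 66.4% of the library's Plin2 UMIs, 75.0% of its Hilpda UMIs, 69.3% of its Cd36 UMIs and 71.3% of its Lpl UMIs. In the Ctrl library the same transcripts were spread otherwise: nonclassical monocytes held 70.3% of Cd36 UMIs and 83.8% of Fabp4 UMIs, and 33.1% of the few Hilpda UMIs came from NK cells. For Fabp5 the cDC stood out in both libraries, with 40.2% of its UMIs in RES and 38.1% in Ctrl although they were 3.02% and 5.66% of the cells.

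**Figure D1:**
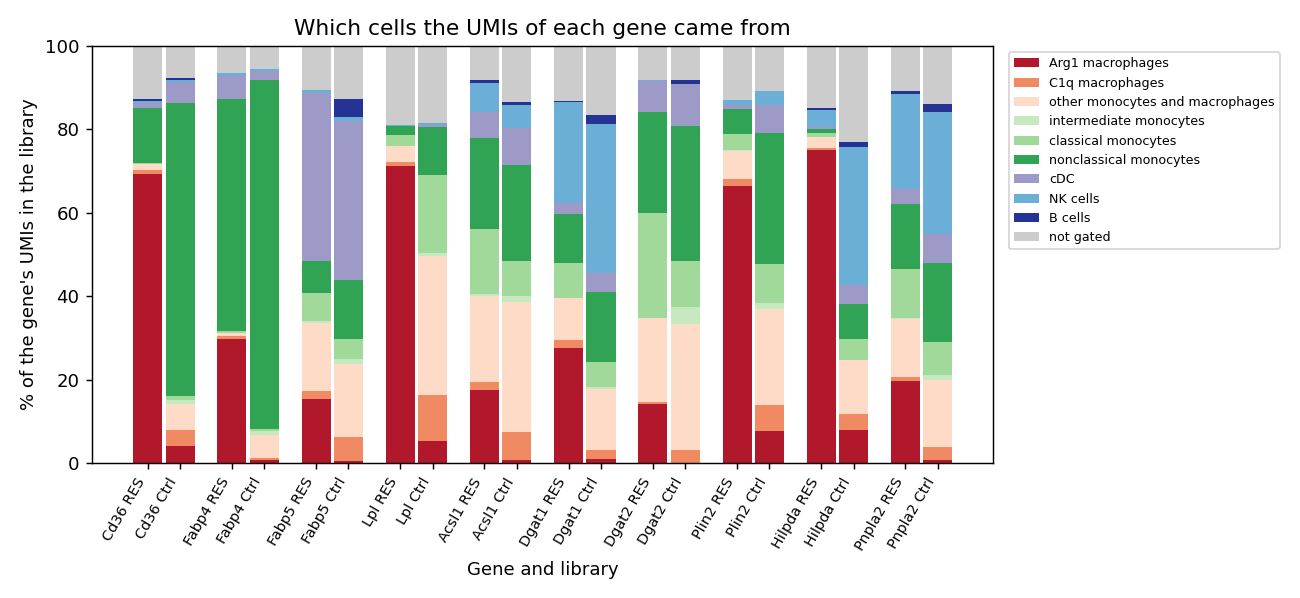
Share of each gene's UMIs (percent of all its UMIs in the kept cells of a library) that came from each cell class, with RES and Ctrl bars for each of the genes. The share held by Arg1 macrophages in RES is 66.4% for Plin2 and 75.0% for Hilpda, and nonclassical monocytes hold 83.8% of the Fabp4 UMIs in Ctrl.

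Plin2, the coat protein of lipid droplets in cells other than fat cells, was higher in RES in the pooled monocytes and macrophages. Its level was 572 CPM in RES (11535 UMIs) and 145 CPM in Ctrl (1306 UMIs), a difference of 1.99 on the log2 scale (1.90 to 2.07). By subset it stood at 1220 CPM in the RES Arg1 macrophages (881 CPM in the 31 Ctrl cells). Outside the Arg1 gate the difference was far smaller, with 197 CPM in RES and 133 CPM in Ctrl (log2 0.57, 0.47 to 0.67). Among the subsets of over 50 cells, the order of the RES levels ran from Arg1 macrophages to C1q macrophages (474 CPM), then nonclassical monocytes (194 CPM), the other monocytes and macrophages (194 CPM) and classical monocytes (163 CPM), of which the nonclassical and the other cells did not differ beyond counting error. In Ctrl the order of the same subsets outside the Arg1 gate was different, with nonclassical monocytes (180 CPM) and C1q macrophages (158 CPM) close together and classical monocytes (111 CPM) and the other cells (98.8 CPM) below. Intermediate monocytes, which passed both monocyte gates, were only 10 RES and 21 Ctrl cells and stood at 223 CPM in RES (21 UMIs) and 177 CPM in Ctrl (27 UMIs). Plin2 was thus higher in RES in C1q macrophages (log2 1.59, 1.25 to 1.93; 51 and 92 cells) and in the other cells (log2 0.97, 0.80 to 1.15), while nonclassical monocytes differed by only 0.11 (-0.06 to 0.27).

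Plin2 was found in nearly all Arg1 macrophages of RES, and no small group of cells held it. In RES, 99.7% of them had a Plin2 UMI, with a median of 12 and a maximum of 71 UMIs a cell, and the tenth of the cells with most UMIs held 28.1% of the sum. After each cell was thinned to 1000 UMIs, 60.5% of the RES Arg1 macrophages had a Plin2 UMI (56.4 to 64.5%). Thinned shares were 29.4% of RES and 11.6% of Ctrl monocytes and macrophages, and 16.9% and 11.4% of those outside the Arg1 gate; the unthinned shares were 75.6% and 52.2%, and 65.9% and 52.2%. In NK cells, which serve as the background for macrophage transcripts, the thinned share was 2.16% in RES and 1.17% in Ctrl (11.2% and 3.84% unthinned, at a median of 4222 and 3460 UMIs).

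Hilpda, whose product inhibits the droplet lipase, showed the largest ratio of the genes. Monocytes and macrophages held 1570 Hilpda UMIs in RES and 68 in Ctrl, or 77.9 and 7.53 CPM, a difference of 3.37 on the log2 scale (3.02 to 3.74). Almost all of it was in the Arg1 macrophages, at 199 CPM in RES (1470 UMIs; 98.6 CPM from 14 UMIs in the Ctrl cells). Outside the gate the level was 7.84 CPM in RES (100 UMIs) and 6.07 CPM in Ctrl (54 UMIs), and the interval of the difference included 0 (log2 0.37, -0.12 to 0.87). Both values lay below the level in NK cells of 13.2 CPM in RES and 12.2 CPM in Ctrl, so Hilpda in monocytes outside the gate was low in either library. Of the RES Arg1 macrophages, 56.7% had a Hilpda UMI (16.1% after thinning), against 5.31% of RES cells outside the gate (0.634% after thinning) and 5.36% of RES NK cells (1.23% after thinning).

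Lpl, the secreted lipoprotein lipase, was higher in RES when all monocytes and macrophages were pooled and lower in RES within each larger subset outside the Arg1 gate. The pooled level was 338 CPM in RES (6815 UMIs) and 176 CPM in Ctrl (1587 UMIs), a log2 difference of 0.94 (0.87 to 1.02) that came to 0.44 when all gate levels were doubled. Arg1 macrophages stood at 813 CPM in RES and 740 CPM in the Ctrl cells. All cells outside the gate had 62.4 CPM in RES and 167 CPM in Ctrl (log2 -1.42, -1.54 to -1.29). The lower level was also found in classical monocytes, with 71.5 CPM in RES and 267 CPM in Ctrl (log2 -1.90, -2.14 to -1.66). The other monocytes and macrophages had 65.0 CPM in RES and 171 CPM in Ctrl (log2 -1.40, -1.60 to -1.20), and nonclassical monocytes 40.0 CPM in RES and 79.9 CPM in Ctrl (log2 -0.999, -1.30 to -0.71). C1q macrophages had 173 CPM in RES (83 UMIs) and 325 CPM in Ctrl (216 UMIs), a log2 difference of -0.91 (-1.30 to -0.54) that turned to 0.69 when all gate levels were doubled.

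Markers of dendritic cells were lower in RES beside Lpl in these cells. The plasmacytoid dendritic cell (pDC) markers Siglech and Ccr9 summed to 43.3 CPM in RES and 331 CPM in Ctrl classical monocytes, and to 32.9 and 63.5 CPM outside the Arg1 gate. Cells with 3 or more of these UMIs per 10000 were 4 of 295 RES and 15 of 174 Ctrl classical monocytes, and they held 0 of 236 and 1 of 366 Lpl UMIs. Without them, a step added after the values were seen, Lpl stood at 72.3 CPM in RES and 290.0 CPM in Ctrl classical monocytes (log2 interval -2.25 to -1.76), and its log2 difference was -1.43 (-1.56 to -1.31) outside the gate. The 7 check markers of cDC, mostly Cd74 and H2-Ab1, which macrophages also express, summed to 1435 CPM in RES and 3629 CPM in Ctrl classical monocytes, and to 6650 and 11594 CPM outside the gate; none was at 0, and their part in the Lpl difference was not tested.

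Lpl was unevenly spread among cells. Outside the Arg1 gate 17.3% of RES and 23.5% of Ctrl cells had an Lpl UMI, and the tenth of the cells with most UMIs held 86.9% and 85.3% of the sum. After thinning to 1000 UMIs, the shares were 3.31% in RES (2.44 to 4.38%) and 8.99% in Ctrl (7.41 to 10.8%), a log2 ratio of -1.44. With thinning to 2000 UMIs the log2 ratio of the shares was -0.93. Whether a thinned cell shows an Lpl UMI also depends on its Lpl level. Fewer Lpl-positive cells and less Lpl in each were thus not told apart. In RES Arg1 macrophages 66.4% of the cells had an Lpl UMI (34.8% after thinning to 1000 UMIs). The median there was 2 UMIs a cell and the maximum 176. NK cells had an Lpl UMI in 1.30% of RES and 0.460% of Ctrl cells, and cDC, at 3.20 CPM in RES and 4.55 CPM in Ctrl, held hardly any Lpl. The cDC gate leaves out cells at the Arg1 and Spp1 level of the Arg1 gate.

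Cd36, the scavenger receptor and fatty acid carrier, followed the Arg1 macrophages in RES and the nonclassical monocytes in both libraries. Pooled monocytes and macrophages had 300.9 CPM in RES (6064 UMIs) and 99.2 CPM in Ctrl (896 UMIs), a log2 difference of 1.60, or 3.03-fold (2.83 to 3.26). Arg1 macrophages stood at 667 CPM in RES and 303 CPM in the Ctrl cells. Outside the gate the level was 88.5 CPM in RES and 95.9 CPM in Ctrl (log2 -0.12, -0.25 to 0.01), so the pooled difference was absent there. Nonclassical monocytes, the patrolling cells of the vessel wall, had 225 CPM in RES and 253 CPM in Ctrl (log2 -0.16, -0.30 to -0.02). Classical monocytes had only 8.18 CPM in RES (27 UMIs) and 5.84 CPM in Ctrl (8 UMIs), and the other monocytes and macrophages 19.7 and 17.3 CPM. C1q macrophages held 150 CPM in RES (72 UMIs) and 58.6 CPM in Ctrl (39 UMIs), a log2 difference of 1.35 (0.77 to 1.95; 2.31 with gate levels doubled). With a UMI in 72.0% of RES Arg1 macrophages (34.4% after thinning) and in 51.2% of RES nonclassical monocytes (20.5% after thinning), Cd36 lay far above NK cells, at 1.61% in RES (0.386% after thinning).

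**Figure D2:**
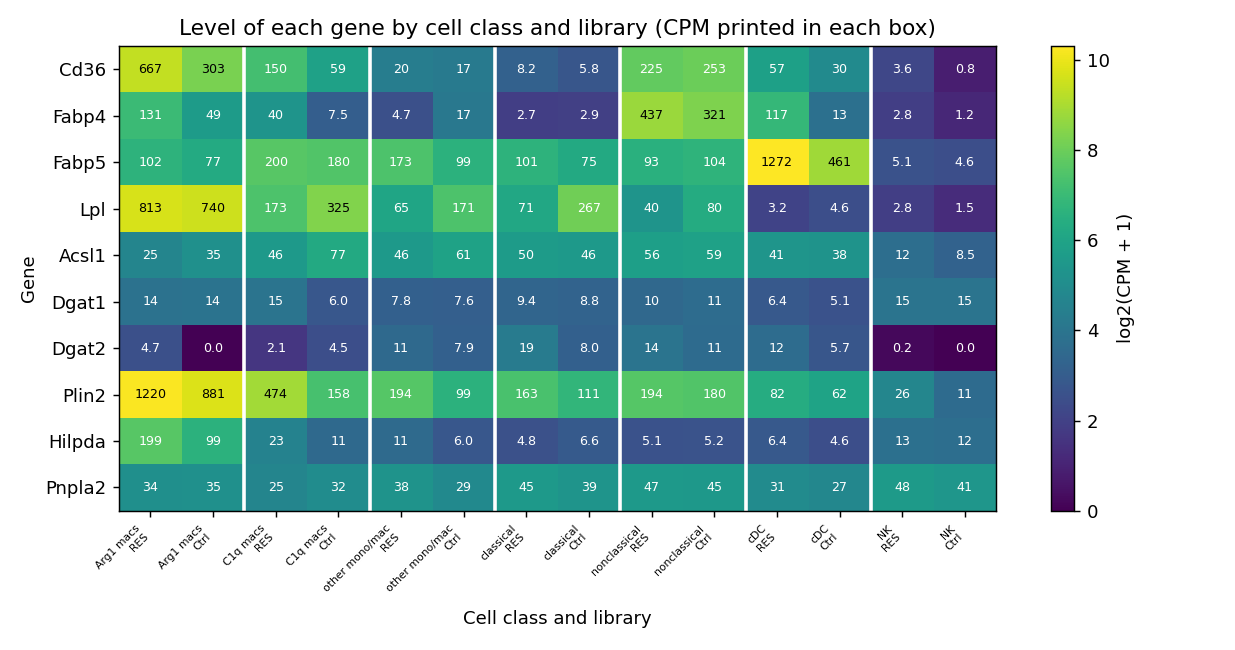
Level of each gene by cell class as a heat map, with RES and Ctrl side by side (1 library per group). Colour shows log2(CPM + 1), and the CPM is printed in each box. The RES Arg1 macrophages lead for Plin2 (1220 CPM), Lpl (813 CPM), Cd36 (667 CPM) and Hilpda (199 CPM), nonclassical monocytes lead for Fabp4 and cDC for Fabp5.

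Fabp4, the fatty acid binding protein of fat cells and macrophages, was mainly a gene of nonclassical monocytes. These had 437 CPM in RES (1813 UMIs) and 321 CPM in Ctrl (927 UMIs), a log2 difference of 0.44 (0.33 to 0.56) that falls short of 1.5-fold. Arg1 macrophages had 131 CPM in RES, with a UMI in 31.7% of the cells. Classical monocytes were near the NK background, at 2.73 CPM in RES and 2.92 CPM in Ctrl. Fabp4 thus separated the monocyte subsets as Cd36 did, but it did not lead in the Arg1 macrophages. The other monocytes and macrophages held 4.66 CPM in RES (22 UMIs) and 16.5 CPM in Ctrl (63 UMIs), too low to be counted. C1q macrophages held 39.5 CPM in RES (19 UMIs) and 7.52 CPM in Ctrl (5 UMIs), a log2 difference of 2.39 (0.92 to 4.17) that ranged from 1.70 to 5.08 with other settings. In the pooled class the level was 141 CPM in RES and 112 CPM in Ctrl (log2 0.33, 0.22 to 0.43).

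Fabp5, the more widely expressed binding protein, was highest in cDC. Its level there was 1272 CPM in RES (1990 UMIs) and 461 CPM in Ctrl (811 UMIs), a log2 difference of 1.46 (1.34 to 1.58). The UMIs were concentrated in few cells: 36.4% of RES and 27.5% of Ctrl cDC had one, and the tenth with most UMIs held 78.4% and 91.9% of the sum. The cDC were therefore split after these values had been seen, by UMIs of Ccr7 and of Xcr1 with Clec9a at 2.5 or more per 10000. Among 27 RES and 28 Ctrl cells with Ccr7, the receptor that guides mature dendritic cells to lymph nodes, Fabp5 stood at 7200 CPM in RES and 3806 CPM in Ctrl (log2 0.92, 0.80 to 1.04), and 96.3% and 92.9% of the cells had a UMI. The 28 RES and 56 Ctrl cells with Xcr1 or Clec9a, marks of cDC1, had 10.2 and 22.7 CPM, and the remaining 66 and 105 cells 126 and 74.0 CPM. Ccr7 cells made up 27 of 121 RES and 28 of 189 Ctrl cDC, so the share of these cells moved with the pooled ratio. In monocytes and macrophages Fabp5 differed little, with 119 CPM in RES and 103 CPM in Ctrl (log2 0.21, 0.10 to 0.32), except in the other monocytes and macrophages, with 173 CPM in RES and 98.6 CPM in Ctrl (log2 0.81, 0.63 to 0.99; 0.21 with gate levels doubled and 1.46 with them halved).

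Fabp4 and Cd36 also differed in cDC, in different cells. Fabp4 had 117 CPM in RES cDC (183 UMIs) and 13.1 CPM in Ctrl cDC (23 UMIs), a log2 difference of 3.16 (2.53 to 3.85) that came to 2.05 as a mean over cells and 2.14 with gate levels halved. A single RES cell with Ccr7 held 109 of the 183 UMIs; among the Ccr7 cells the level was 665 CPM in RES and 57.4 CPM in Ctrl, and it came to 266 CPM in RES and 27.8 CPM in Ctrl without the highest cell of each library. Cd36 had 56.9 CPM in RES cDC (89 UMIs) and 29.6 CPM in Ctrl cDC (52 UMIs), a log2 difference of 0.94 (0.43 to 1.47). Of these UMIs 80 in RES and 46 in Ctrl were in the cells with Xcr1 or Clec9a, where 82.1% of RES and 41.1% of Ctrl cells had one and the level was 163 CPM in RES and 69.6 CPM in Ctrl (log2 1.22, 0.68 to 1.78). These shares were not thinned, and the median cell had 15880 UMIs in RES and 11780.5 in Ctrl. Cd209a, a check marker of cDC, had 0 UMIs in these RES cells and 80.2 CPM in the Ctrl cells (53 UMIs in 9 of 56 cells). The cells of the 2 libraries may thus differ in kind.

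The enzymes of activation, synthesis and droplet lipolysis were low and differed little. Acsl1, an acyl-CoA synthetase that activates long-chain fatty acids, had 40.9 CPM in RES and 59.0 CPM in Ctrl monocytes and macrophages (log2 -0.53, -0.69 to -0.37), and 50.2 and 59.4 CPM outside the Arg1 gate (log2 -0.24, -0.41 to -0.07). The RES Arg1 macrophages stood at 24.9 CPM. Pnpla2, the gene of adipose triglyceride lipase, had 39.3 CPM in RES and 36.2 CPM in Ctrl (log2 0.12, -0.07 to 0.31), close to its level in NK cells of 47.7 and 41.5 CPM. Of the genes that make triglyceride from diacylglycerol, Dgat1 had 10.9 and 8.97 CPM and Dgat2 10.3 and 8.86 CPM, below the minimum of 20 CPM set for a ratio to be counted. Dgat1 was as high in NK cells, at 14.6 CPM in RES and 14.7 CPM in Ctrl, whereas Dgat2 was nearly absent from lymphocytes, with 1 UMI in RES NK cells and 0 in Ctrl NK cells (up to 0.622 CPM at 3 counts). Classical monocytes had 18.8 CPM of Dgat2 in RES (62 UMIs) and 8.03 CPM in Ctrl (11 UMIs).

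A gene was counted as higher or lower where RES and Ctrl differed 1.5-fold or more and either library reached 20 CPM; the share of all measured genes that did so is the background. In pooled monocytes and macrophages 4 of the 8 measured members were higher (Cd36, Lpl, Plin2 and Hilpda) and 0 lower, against backgrounds of 6.27% and 4.48%. Outside the Arg1 gate 0 of 7 were higher and 1 lower (Lpl), against 2.65% and 2.89%. Classical monocytes had 0 of 5 higher and 1 lower (Lpl), against 6.51% and 7.47%, and nonclassical monocytes 0 of 7 higher and 1 lower (Lpl), against 3.69% and 2.13%. The other monocytes and macrophages had 2 of 5 higher (Fabp5 and Plin2) and 1 lower (Lpl), against 4.11% and 3.46%. In C1q macrophages 4 of 8 were higher (Cd36, Fabp4, Plin2 and Hilpda) and 2 lower (Lpl and Acsl1), but 13.9% and 17.6% of all genes passed there, the intervals of Hilpda and Acsl1 included 0, and the sign of Hilpda turned with gate levels halved (log2 1.12 and -0.19). In cDC 3 of 6 were higher (Cd36, Fabp4 and Fabp5) and 0 lower, against 5.56% and 4.70%. In NK cells 1 of 2 was higher (Plin2, with 26.0 CPM in RES and 11.2 CPM in Ctrl), against 0.862%, and 0 lower, against 0.558%. Plin2 there reached 20 CPM only in RES, as did Hilpda in the pooled class, Fabp4 and Hilpda in C1q macrophages, and Fabp4 in cDC. These were thus counted through the library where they were high. B cells had 1 of 3 higher (Cd36) and 2 lower (Fabp5 and Pnpla2), against 20.7% and 15.5%. Pnpla2 there rested on 8 RES and 13 Ctrl UMIs, and its interval included 0 (log2 -0.91, -2.39 to 0.47). A single Ctrl B cell held nearly all the Ctrl Fabp5 UMIs. Cd36 reached 20 CPM only in RES, and Fabp5 and Pnpla2 only in Ctrl.

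**Figure D3:**
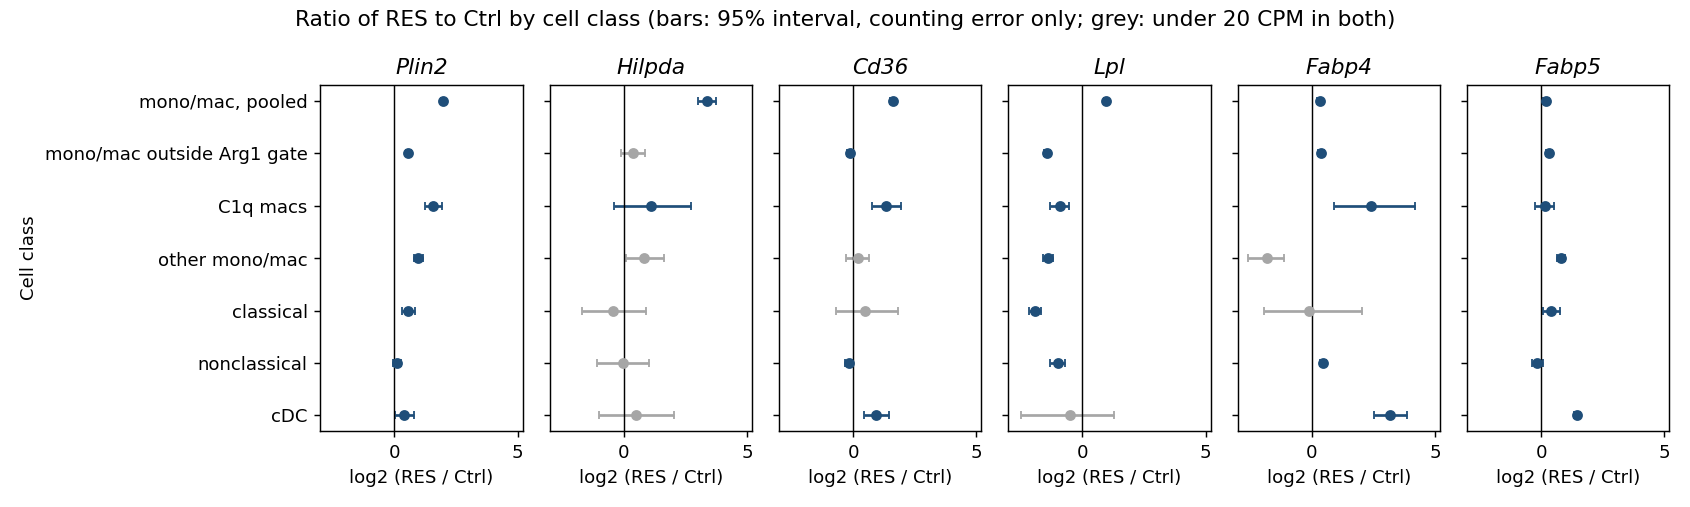
Log2 ratio of RES over Ctrl by gene and cell class, with bars for the 95% exact interval (counting error only). Lpl lies at 0.94 in the pooled monocytes and macrophages but at -1.42 outside the Arg1 gate and at -1.90 in classical monocytes (between -2.25 and -1.76 without the cells at the pDC level), and Plin2 at 1.99 in the pooled class and 0.57 outside the gate.

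Since the subsets differ in level and in share, the pooled ratio was recomputed with the RES level of each subset weighted by that subset's share of Ctrl UMIs. Of the UMIs of monocytes and macrophages, Arg1 macrophages high and low in C1q (15 or more of its UMIs per 10000, or fewer) held 11.5% and 25.2% in RES, and 1.05% and 0.523% in Ctrl. At the Ctrl mix the log2 ratio of Hilpda came to 0.67 in place of 3.37, that of Plin2 to 0.65 in place of 1.99, and that of Cd36 to 0.05 in place of 1.60. For Lpl it came to -1.18 in place of 0.94, so its sign depended on the mix. Fabp4 (0.39 in place of 0.33), Fabp5 (0.41 in place of 0.21) and Pnpla2 (0.18 in place of 0.12) moved little, and Acsl1 came to -0.25 in place of -0.53. The subset weights come from the same cells, and Arg1 macrophages in Ctrl are 31 cells, so more cells of a kind and more RNA per cell are separated here only as far as the gates separate them.

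**Figure D4:**
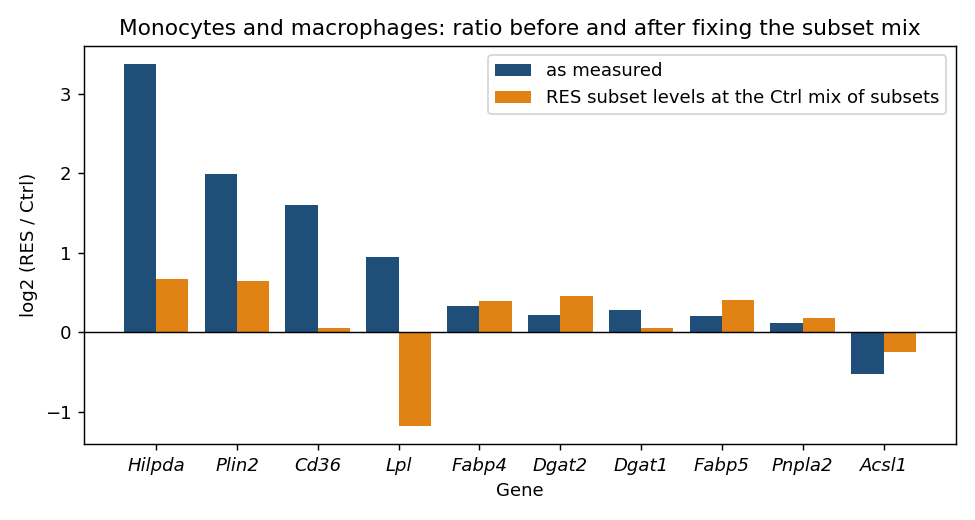
Log2 ratio of RES over Ctrl in monocytes and macrophages for each gene, as measured and with RES subset levels weighted by the Ctrl mix of subsets. Hilpda, Plin2 and Cd36 come to 0.67, 0.65 and 0.05 at the Ctrl mix, and Lpl changes sign to -1.18.

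Within the RES monocytes and macrophages the genes followed the summed level of Arg1 and Spp1 in different ways. In cells with none (1051), above 0 and under 10 (379), 10 to under 30 (78), 30 to under 100 (291) and 100 or more per 10000 (206), Plin2 stood at 175, 249, 945, 1115 and 1496 CPM. Hilpda stood at 5.45, 13.6, 93.2, 159 and 304.3 CPM and Cd36 at 83.7, 99.7, 460.2, 554 and 929 CPM in the same order, so all 3 were higher in each further range. Lpl took another shape, with 53.6, 83.5, 815, 808 and 821 CPM: it was level across the 3 ranges inside the gate. Fabp4, at 152, 134, 185, 121 and 125 CPM, and Fabp5, at 131, 124, 153, 81.8 and 113 CPM, had no such order. Acsl1 was lower inside the gate, with 51.0, 48.1, 23.5, 27.3 and 21.7 CPM, as was Dgat2, with 13.7, 13.3, 2.94, 4.11 and 6.42 CPM (3 to 16 UMIs inside the gate). Trem2, the lipid receptor of scar-associated macrophages, went along with Plin2, at 76.4, 81.6, 178, 221 and 282 CPM. The ranges share cells of 1 library and differ in depth, with medians of 8719, 9988, 11820, 12581 and 11726 UMIs a cell.

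**Figure D5:**
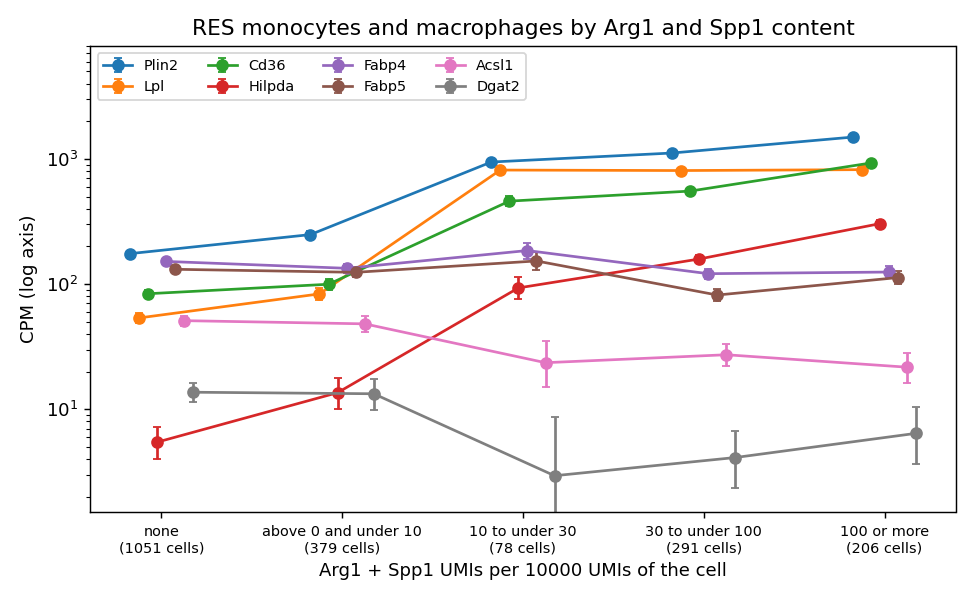
Level in CPM (log axis) of the genes in RES monocytes and macrophages divided by the summed Arg1 and Spp1 UMIs per 10000, with bars for the 95% exact Poisson interval. Plin2 lies at 175 CPM in cells with none and 1496 CPM in cells with 100 or more, Lpl is level from 10 upward, and Acsl1 is lower inside the gate.

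Whether the Arg1 macrophages were high or low in C1q, the genes of the complement subunits that mark mature tissue macrophages, made little difference to Plin2, Lpl, Cd36 and Hilpda. In RES the 169 cells high in C1q and the 406 low in it had 1266 and 1199 CPM of Plin2, 849.8 and 797 CPM of Lpl, 649.9 and 675 CPM of Cd36, and 212 and 193 CPM of Hilpda. The Poisson intervals overlapped for each of these 4 genes, which does not show that the levels were equal. No interval was computed for the ratio between the high and the low cells. Among the other genes, Dgat1 had 8.61 CPM in the high cells (20 UMIs) and 16.2 CPM in the low cells (82 UMIs). Dgat2 had 2.58 and 5.71 CPM (6 and 29 UMIs), while Fabp5 was higher in the high cells, at 112 and 97.7 CPM.

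RNA that leaks from broken cells gives every droplet some UMIs, and its size can be read from NK cells. In RES, NK cells held Lyz2 at 1.10% of its level in monocytes and macrophages, Csf1r at 0.956%, Arg1 at 0.805% and Chil3 at 1.09%, but Spp1 at 3.71% (3.17 to 4.32%). Lpl at 0.827% and Cd36 at 1.20% lay at the level of the first 4 of these genes, so NK cells showed none of either beyond it. Plin2 at 4.54% (3.85 to 5.31%), Fabp5 at 4.27% (2.90 to 6.08%) and Hilpda at 16.9% (13.3 to 21.1%) lay above those 4, although the intervals of Plin2 and Fabp5 overlapped that of Spp1, and Pnpla2 at 121% and Dgat1 at 134% were as high in NK cells as in macrophages. Beside the higher Plin2 of RES NK cells, the macrophage genes Lyz2 and Apoe stood there at 104 and 41.1 CPM in RES and at 81.9 and 27.2 CPM in Ctrl; the part of leaked RNA in the NK value was not tested.

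Marker lists of other cells were summed in the monocytes and macrophages of both libraries. The pDC markers came to 21.1 CPM in RES and 62.5 CPM in Ctrl, and neither was at 0. The 7 hepatocyte markers summed to 43.3 CPM in RES and 49.0 CPM in Ctrl, and none was at 0. The 5 platelet markers summed to 73.2 CPM in RES and 26.1 CPM in Ctrl and the 6 neutrophil markers to 82.4 and 68.4 CPM, with Gp1bb and Ly6g at 0 in both, Retnlg at 0 in RES and Camp at 0 in Ctrl; in RES Arg1 macrophages 175 of the 179 CPM of the platelet list were Pf4. The 7 endothelial markers summed to 3.52 CPM in RES and 5.42 CPM in Ctrl (Stab2 and Ptprb at 0 in Ctrl), and the 5 stellate cell markers to 0.595 and 0.332 CPM (Lrat at 0 in both, Col1a1, Col3a1 and Rgs5 also in Ctrl). Outside the Arg1 gate the platelet list came to 11.7 CPM in RES and 19.5 CPM in Ctrl; its part in the results was not tested.

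Of 104 further genes of lipid metabolism in 8 roles, 53 were measured in pooled monocytes and macrophages, and 6 were higher in RES (11.3%, beside 6.27% of all measured genes) and 0 lower. Their median log2 ratio was 0.15, beside 0.05 over all measured genes. Among carriers and receptors, the scavenger receptor gene Msr1 (137 CPM in RES, 85.0 CPM in Ctrl, log2 0.69) and Lrp1 (442 and 290.7 CPM, log2 0.60) were higher. In triglyceride synthesis Gpat4, which makes the first step from glycerol phosphate, had 30.2 CPM in RES and 19.5 CPM in Ctrl (log2 0.63) and counted as higher. Gpat4, like Slc25a20 below, reached the minimum of 20 CPM only in RES. Agpat5 (log2 0.56), Agpat3 (log2 -0.53) and the phosphatidate phosphatase gene Lpin2 (log2 -0.58) did not reach 1.5-fold. In fatty acid oxidation Slc25a20, the carnitine carrier of the inner mitochondrial membrane, had 29.6 CPM in RES and 19.2 CPM in Ctrl (log2 0.63) and was the only one of 14 measured genes that counted as higher, while Etfa (log2 0.52), Hadha (log2 -0.14) and Acadl (log2 -0.12) did not.

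Among the regulators Hif1a, the oxygen-sensitive subunit of hypoxia inducible factor, had 264 CPM in RES and 106 CPM in Ctrl (log2 1.32, 1.22 to 1.42). Cebpb had 1937 CPM in RES and 995 CPM in Ctrl (log2 0.96, 0.93 to 0.99), whereas Tfeb (log2 -0.38) and Srebf2 (log2 -0.18) did not reach 1.5-fold. The droplet genes Lipe, hormone-sensitive lipase (log2 -0.23), and Hsd17b11 (log2 -0.07) did not differ 1.5-fold, nor did Acly (log2 0.15), Elovl1 (log2 0.15), Scd2 (log2 -0.10) and Elovl5 (log2 0.06) in fatty acid synthesis. Activation genes were alike in this, with Acsl4 at log2 0.50, Acot7 at 0.18 and Acot9 at -0.11. Of the lipoprotein genes, Apoe had 2342 CPM in RES and 2128 CPM in Ctrl (log2 0.14) and Apoc1 22.2 and 16.9 CPM (log2 0.39). Outside the Arg1 gate 52 of the 104 were measured, and 1 was higher (Cebpb, 1812 CPM in RES and 989 CPM in Ctrl, log2 0.87) and 1 lower (Scd2, 37.8 and 61.2 CPM, log2 -0.69), which is 1.92% in each direction, beside 2.65% and 2.89% of all measured genes; Hif1a had 154 CPM in RES and 104 CPM in Ctrl there (log2 0.57).

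Across 17 points, each a cell class of 1 library with at least 20 cells, the genes fell into different patterns. By Pearson correlation of log2(CPM + 10), which is descriptive because the points share libraries and depth, the genes most like Plin2 were Slc39a1 (0.98), Tgm2 (0.97) and Gabarap (0.97). Those most like Hilpda were Car6 (0.97), Chchd2 (0.97) and Slc39a14 (0.96), and those most like Lpl were Ninj1 (0.96), Mitf (0.94) and Msr1 (0.94). Cd36 was most like Rock2 (0.92), Myo1c (0.87) and Retreg1 (0.85), Fabp4 like Dusp16 (0.89), Gfpt1 (0.88) and Cyth3 (0.87), and Fabp5 like Gfer (0.88), Syngr2 (0.87) and Batf3 (0.84). Acsl1 was most like Hpgd (0.95), Ogfrl1 (0.95) and Scarb1 (0.95), and Pnpla2 like Rab2a (0.89), Bloc1s4 (0.85) and Ahsa2 (0.85). Between the 10 genes themselves the closest pairs were Lpl with Plin2 (0.86), Cd36 with Fabp4 (0.79), Acsl1 with Dgat2 (0.74) and Cd36 with Plin2 (0.72).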

How the data were processed

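The authors deposited, for each sample, a matrix of UMI counts that had not been normalized. Per the labels' protocols these come from 10x 3′ libraries of sorted liver cells, read on an Illumina instrument. Cell Ranger 3.1.0 appears in the file headers; bcl2fastq, Cell Ranger and mm10 appear in the submitters' processing notes, and the annotation used for counting is not given in the sources used here. Barcodes under 200 genes or over 10% mitochondrial UMIs were dropped, which left out 121 RES and 245 Ctrl barcodes, and the highest Scrublet doublet scores were then removed (146 RES and 109 Ctrl). Doublets that the score missed can remain.

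Cells were gated in order on summed UMIs per 10000. NK cells had 5 or more of Ncr1, Klrb1c, Klre1, Klra8, Klra4, Klra7 and Eomes. B cells had 5 or more of a marker list that held Cd79a, Cd79b and Ms4a1. Conventional dendritic cells had 2.5 or more of Flt3, Zbtb46, Xcr1, Clec9a and Ccr7. Monocytes and macrophages had 8 or more of Csf1r, Mpeg1, Ms4a6c, Clec4a3, Clec4a1 and Cd68. NK and B cell gates also required the other lineages among NK, T, B and monocyte or macrophage genes to be below 3. The last 2 gates required NK, T and B cell genes to be below 3, and the dendritic cell gate also Siglech and Ccr9. Cells with these pDC markers could thus pass as monocytes. The dendritic cell gate further required Ly6c2 and Vcan below 10, C1qa, C1qb and C1qc below 15, and Arg1 and Spp1 below 10. Among monocytes and macrophages, Arg1 macrophages had 10 or more of Arg1 and Spp1, and C1q macrophages 15 or more of C1qa, C1qb and C1qc. Of the rest, classical monocytes had 10 or more of Ly6c2 and Vcan, and nonclassical monocytes 5 or more of Ace, Treml4, Adgre4 and Cd300e; cells past both are intermediate and cells past neither the other monocytes and macrophages. The deposited files used here give no cell types, so the classes may differ from those of the study.

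UMIs were summed per class and library and scaled to CPM (numpy 2.4.6, pandas 2.3.3, scanpy 1.11.5). Sums have exact Poisson intervals, ratios exact conditional binomial intervals and shares exact Clopper-Pearson intervals (scipy 1.17.1), at 95%. UMIs of 1 library are not independent samples of mice, so these limits cover counting only. For shares, each cell was thinned to 1000 UMIs and shallower cells were left out. A count of 0 allows up to 3 counts. On simulated counts the ratios were tested and recovered.

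The genes, the lipid gene list, the gates and the rules were chosen with earlier results of these data known. Named lipid genes are the 2 highest and 2 lowest measured ones of each of 8 roles in monocytes and macrophages, of which 1 is not reported here; Lrp1, and the genes named outside the Arg1 gate, were added after their values were seen because few genes were counted. Genes of like pattern were sought for members that reached 50 CPM in a class. Alternatives tried were other scalings, minimum levels, filters, doublet handling, gates, folds and thinning depths.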

Additional observations from a re-analysis of the deposited data

Results flagged for a closer look

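Cells outside every gate were used in no comparison of the report, yet they held these transcripts at higher levels in RES. There were 521 such cells in RES and 561 in Ctrl. Their log2 ratios of RES over Ctrl were 3.22 for Cd36 (242 and 26.1 CPM), 3.02 for Plin2 (472 and 58.4 CPM), 2.54 for Hilpda (78.8 and 13.5 CPM), 1.83 for Lpl (429 and 120 CPM), 1.53 for Fabp4 (57.1 and 19.8 CPM) and 0.66 for Fabp5 (140 and 88.8 CPM). Of the RES cells 134 reached the Arg1 and Spp1 level of the Arg1 gate, as did 19 Ctrl cells with a median of 648 UMIs, and 100 of the 134 lay below the gate on monocyte and macrophage genes. These 134 cells held 1524 of the 1762 Plin2 UMIs (86.5%), 95.9% of the Lpl UMIs, 93.7% of the Cd36 UMIs and 85.4% of the Hilpda UMIs, but 25.7% of the Fabp5 UMIs. Over all cells outside the gates, the hepatocyte markers summed to 108 CPM in RES and 22.8 CPM in Ctrl and the platelet markers to 117 and 12.5 CPM; the part of either in these values was not tested.

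Fabp5 had opposite directions in 2 classes, and the difference between them was not tested. Its log2 ratio was 1.46 in cDC and -4.15 in B cells, where it stood at 14.5 CPM in RES (6 UMIs) and 257 CPM in Ctrl (92 UMIs). A single Ctrl B cell held 89 of those 92 UMIs.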

How the results depend on the processing

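No paired analysis was possible because each group is 1 library, and for the same reason no library could be left out. Of 492 recomputed gene values 448 moved less than counting error, 42 moved further and 2 that were past 1.5-fold changed sign. Lpl in C1q macrophages came to 0.69 with gate levels doubled (-0.91 in the report), and Hilpda there to -0.19 with gate levels halved (1.12 in the report). Sign changes of values under 1.5-fold were not counted apart. Cd36 outside the Arg1 gate, for example, was -0.12 in the report and up to 0.19 with other settings. Of the values past 1.5-fold, Lpl in pooled monocytes and macrophages came to 0.44 with gate levels doubled, and Fabp5 in the other monocytes and macrophages to 0.21. In C1q macrophages Lpl came to -0.54 as a mean over cells, Acsl1 to -0.57 with gates halved and Hilpda to 0.48 with gates on raw UMIs. Of 182 recomputed counts 149 stayed within 1.5 times. The cause of the shifts was not tested, except that a lower minimum admits more genes and a higher fold fewer.

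Counts of further lipid genes (6 higher and 0 lower in monocytes and macrophages, 1 and 1 outside the Arg1 gate) and of the 10 genes moved as follows. The share of all measured genes was not worked out at these other settings. The counts thus have no background beside them and show only how far they depend on the settings. Without a minimum level, 21 and 8 lipid genes counted in monocytes and macrophages and 14 and 10 outside the gate, with 1 of the 10 genes higher outside the gate and 1 in classical monocytes. At 2-fold, 1 lipid gene was higher in monocytes and macrophages, 0 and 0 outside the gate, and 0 of the 10 genes were lower in nonclassical monocytes. With gate levels doubled, 2 lipid genes were higher in monocytes and macrophages and 2 outside the gate, and 1 of the 10 genes was higher outside the gate and 2 in classical monocytes. With gate levels halved, 2 lipid genes were lower in monocytes and macrophages and 2 higher outside the gate, and 1 of the 10 genes was higher in classical monocytes and 1 lower in cDC. With means over cells, 1 lipid gene was lower in monocytes and macrophages, 2 higher and 2 lower outside the gate, and 1 of the 10 genes was higher outside the gate and 1 in classical monocytes. With high doublet scores kept, 1 lipid gene was lower in monocytes and macrophages and 3 higher outside the gate, where 1 of the 10 genes was higher. With gates on raw UMIs 1 was lower and 3 were higher in these 2 classes. At 5% mitochondrial UMIs, 2 lipid genes were higher outside the gate and 1 of the 10 genes in classical monocytes. With the median ratio as scale, 1 lipid gene was lower in monocytes and macrophages. In cells with at least 2000 UMIs, an alternative chosen after seeing the data, 2 lipid genes were higher outside the gate; without the cells at the pDC level, chosen likewise, 1 lipid gene was lower in monocytes and macrophages; leaving out the barcodes found in both libraries, also chosen likewise, moved none of these counts by over 1.5 times. Dgat1 and Dgat2 are limited by depth, at 8 to 11 CPM in pooled monocytes and macrophages.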
